A study of Mus musculus with 18 samples.

Results

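Hepatic mRNA levels of 9 genes of the growth hormone and insulin-like growth factor (IGF) axis were described in the livers of 18 male mice. The 9 genes were taken by name from the 54532 genes of the expression table, and each name matched 1 row. They were the ligand gene Igf1, the growth hormone receptor gene Ghr, the IGF-binding protein genes Igfbp1, Igfbp2, Igfbp3, Igfbp4 and Igfbp7, the acid-labile subunit gene Igfals, and the feedback inhibitor gene Socs2. All 9 were among the 10216 genes with a mean level of at least 1 FPKM (fragments counted per gene, divided by the gene's length and by a library size), which were the genes tested. The genes were chosen by name with earlier FPKM differences between these mice known, among them the higher Igfbp2 level in SZ-A-treated than in HFD-fed mice. Calls and adjusted p-values of these 9 genes are therefore descriptions and are not independent evidence.

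The study compared 3 groups of 6 C57BL/6 mice (C57BL/6J in the study's methods). NC mice received normal chow, HFD mice a high-fat diet, and SZ-A mice the same high-fat diet with Ramulus Mori (Sangzhi) alkaloids, an extract of mulberry twig whose main components are the iminosugars DNJ (deoxynojirimycin), fagomine and DAB, an arabinitol analogue. Mice were 6 weeks old when first housed, were acclimatised for 1 week, and were then fed the high-fat diet for 14 weeks before treatment. Treatment lasted 6 weeks by the study's methods and 8 weeks by the deposited description, with the high-fat diet continued, and the dose given to the sequenced mice was not stated in the sources used here. Mice were fasted overnight before the liver was taken. For the mouse NC6 the diet label reads high-fat, against its title, by which it was kept in NC. SZ-A and NC mice differed in diet and treatment together.

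Growth hormone from the pituitary acts on hepatocytes through GHR, JAK2 and STAT5, and drives transcription of Igf1, Igfals and Socs2. Most circulating IGF-1 comes from the liver and travels in a complex of IGF-1, IGFBP-3 or IGFBP-5 and the acid-labile subunit, while IGFBP-1, IGFBP-2 and IGFBP-4 form smaller complexes. In liver, transcription of Igfbp1 rises with fasting and is repressed by insulin, and low hepatic Igfbp2 expression is known from obese and insulin-resistant mice. Igfbp3 and Igfbp7 are expressed mainly by non-parenchymal liver cells such as endothelial and stellate cells.

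By the coordinates of the expression table (mouse genome build GRCm38), Igfbp2 (ENSMUSG00000039323) lies on the plus strand of chromosome 1 from 72824503 to 72852474. Its neighbour Igfbp5 lies on the opposite strand, with its end 5457 bases beyond that of Igfbp2, so that the ends of both genes face each other. Igfbp1 (ENSMUSG00000020429, plus strand, chromosome 11, 7197782 to 7202546) and Igfbp3 (ENSMUSG00000020427, minus strand, chromosome 11, 7206086 to 7213923) are arranged in the same way, 3539 bases apart. Igfbp4 (ENSMUSG00000017493) lies on chromosome 11 from 99041244 to 99054392, and Igfbp7 (ENSMUSG00000036256) on chromosome 5 from 77349240 to 77408041. Igf1 (ENSMUSG00000020053) spans 87858265 to 87937042 and Socs2 (ENSMUSG00000020027) 95385362 to 95417180 on chromosome 10. Igfals (ENSMUSG00000046070) lies on chromosome 17 from 24878770 to 24882008, and Ghr (ENSMUSG00000055737) on chromosome 15 from 3317760 to 3583492. Igf1 overlaps the antisense gene Igf1os, and Igfbp7 overlaps Polr2b and Gm34648 on the other strand. Whether fragments were counted by strand was not given in the sources used here, so fragments from such overlaps cannot be told apart.

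Promoter sequences from RefSeq (GRCm38.p6) were matched for 8 of the 9 genes, with Socs2 named only. The 250 bases before each of their 12 transcription starts were searched on both strands for 3 motifs. These were the STAT5 motif TTCNNNGAA, which reads the same on both strands, the FOXO motif GTAAACA, and the insulin response element CAAAACA, which is bound by FOXO1. The window of Igfbp1 and the first of 2 windows of Igfbp2 are shown because the levels of these genes differed most between the groups, and Igfals as stretches around its STAT5 motifs. Capitals mark the motif, and all are on the plus strand, which is the strand of these genes.
Igfbp1, chr11:7197537-7197786: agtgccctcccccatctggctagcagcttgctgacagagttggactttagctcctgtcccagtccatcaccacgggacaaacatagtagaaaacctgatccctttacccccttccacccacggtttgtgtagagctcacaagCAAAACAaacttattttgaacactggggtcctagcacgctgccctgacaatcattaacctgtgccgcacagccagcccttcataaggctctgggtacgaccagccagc
Igfbp2, chr1:72824230-72824479: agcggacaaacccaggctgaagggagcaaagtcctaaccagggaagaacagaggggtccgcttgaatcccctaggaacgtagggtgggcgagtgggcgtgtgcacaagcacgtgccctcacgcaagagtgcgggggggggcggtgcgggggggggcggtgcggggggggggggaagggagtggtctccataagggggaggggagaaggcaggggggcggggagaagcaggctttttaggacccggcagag
Igfals, chr17:24877598-24877626: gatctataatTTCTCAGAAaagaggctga
Igfals, chr17:24878163-24878191: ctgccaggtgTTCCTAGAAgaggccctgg
The Igfbp1 promoter held 1 insulin response element, with its first base at position -108 from the start. This motif was found in 5.56% of the 32851 mouse promoters searched in the same way. The Igfals promoters held STAT5 motifs at -236 from a start at 24877844 and at -58 from a start at 24878231, and a FOXO motif at -242 from the latter, while none was found before its other start at 24878747. All of these Igfals starts lie before 24878770, the first base of the gene in the expression table, and 24878747 is the nearest to it. STAT5 motifs were present in 7.02% of all promoters and FOXO motifs in 3.17%, counted per start and not per gene. None of the 3 motifs was found in the windows of Igf1, Igfbp2, Igfbp3, Igfbp4, Igfbp7 and Ghr, which says only that these letters are not in those 250 bases.

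The libraries were similar in depth, with 17163191 to 20493907 fragments on genes per mouse. The 5 hepatocyte marker genes analysed summed to 40689 to 58098 FPKM in NC, 27607 to 46421 FPKM in HFD and 32392 to 58045 FPKM in SZ-A, and 1 of them, Apoa1, was called lower in HFD than in NC. The 4 adipocyte markers summed to no more than 7.51 FPKM in NC, to between 20.1 and 135 FPKM in HFD and to no more than 31.1 FPKM in SZ-A. Of these, Cfd alone passed the filter and was called higher in HFD than in NC, averaging 52.4 FPKM in HFD. Adipoq and Plin1 were lower in HFD, with means of 0.202 FPKM in NC and 0.0913 FPKM in HFD for Adipoq. Plin1 averaged 0.0742 FPKM in NC and 0.0126 FPKM in HFD. Lep was at 0 in all NC and SZ-A mice and above 0 in 1 HFD mouse. Summed markers reached at most 44.3 FPKM for cholangiocytes, 31.7 FPKM for muscle, 2.31 FPKM for mesothelial cells and 1.23 FPKM for T cells in any mouse. Their part in the values below was not tested. The summed FPKM per mouse was lower in HFD (353946 to 424825) than in the other groups (400729 to 489187 across NC and SZ-A). Rescaling every mouse to a common sum therefore moved the median log2 fold change of all genes from -0.03 to 0.15 in HFD against NC and from 0.03 to -0.15 in SZ-A against HFD. In bulk liver, fewer cells of a type and less RNA per cell cannot be told apart.

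Mean levels of the 9 genes in NC liver, which FPKM gives per gene length, ran from 1.51 FPKM for Socs2 to 802 FPKM for Igfbp2. Igfbp2 ranked 76 among the 10216 genes tested and did not overlap Igfbp4, the next gene. Igfbp1 followed, with a range that overlapped those of Igfbp4, Igfbp7, Igf1, Ghr and Igfals. Next came Igfbp7, then Igf1, Ghr and Igfals, and then Igfbp3 above Socs2 with no overlap. The Ghr range overlapped those of Igf1 and Igfals, which did not overlap each other. In HFD liver Igfbp4 stood above Igfbp2, with no overlap, and Igfbp2 ranked 195. In SZ-A liver Igfbp2 ranked 84 and its range overlapped that of Igfbp4.

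**Figure D1:**
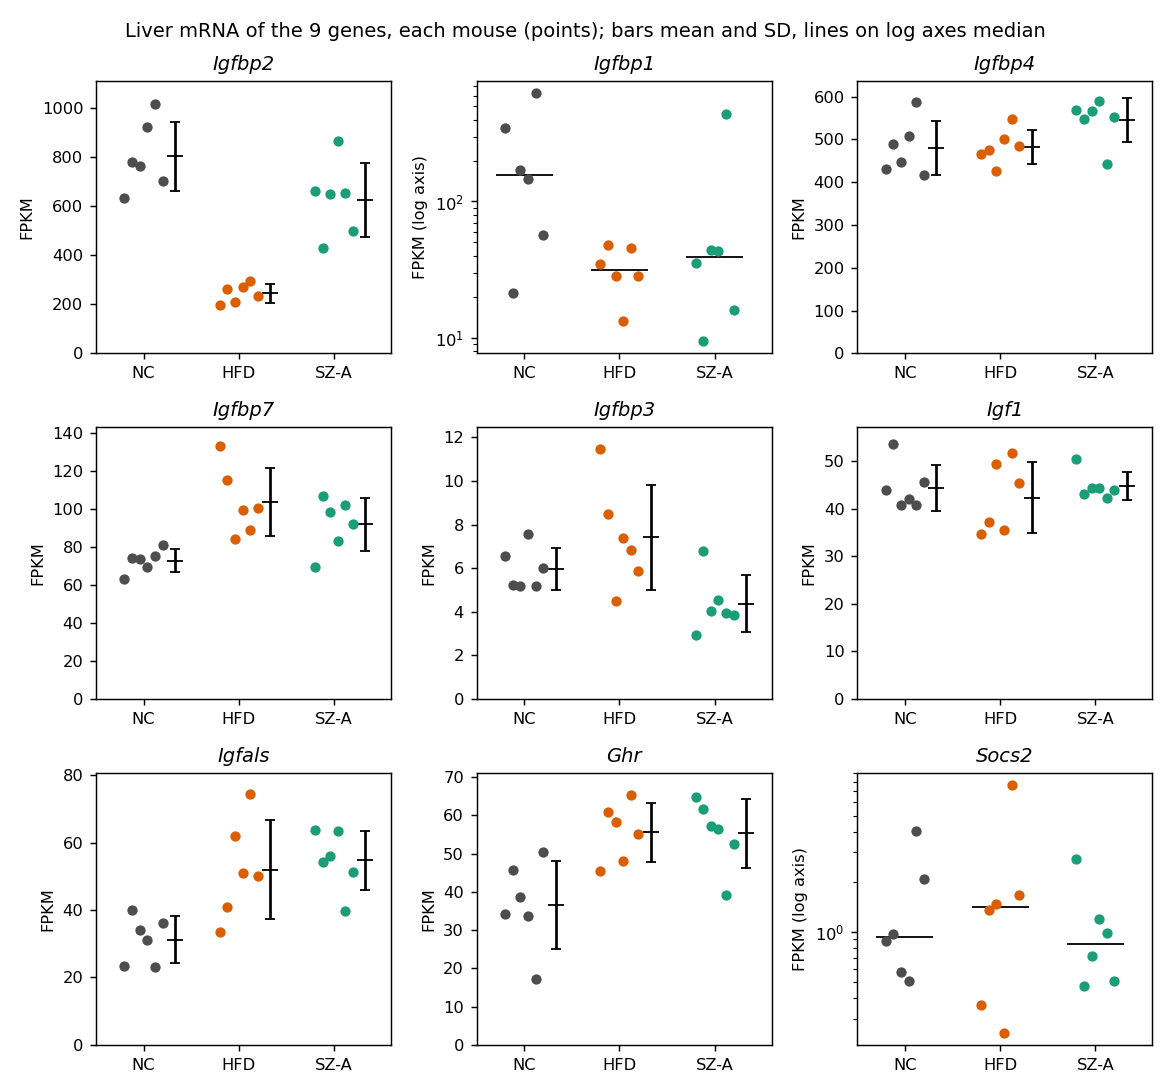
Expression level (FPKM) of each of the 9 genes in each mouse, with 6 mice per group. Points are mice, bars on linear axes give mean and SD, and horizontal lines on the log axes of Igfbp1 and Socs2 give the median. Igfbp2 is between 196 and 295 FPKM in HFD and at or above 429 FPKM in every NC and SZ-A mouse.

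Igfbp2 fell in HFD liver and was higher in SZ-A liver. The gene encodes an abundant binding protein of the smaller IGF complexes. Its level ranged from 633 to 1015 FPKM in NC (median 770), from 196 to 295 FPKM in HFD (median 247) and from 429 to 863 FPKM in SZ-A (median 649). All 6 HFD mice were below every NC and every SZ-A mouse, whereas the NC and SZ-A ranges overlapped and 2 SZ-A mice were below the lowest NC mouse. Ranges that do not overlap were found for 10.5% of all genes tested in HFD against NC and for 1.28% in SZ-A against HFD. The mean fell from 802 ± 142 FPKM in NC to 244 ± 38.1 FPKM in HFD (SD, n = 6), a log2 fold change of -1.71 ± 0.13 (SE) with an adjusted p of 1.25e-05 by limma. In SZ-A the mean was 624 ± 151 FPKM, 2.52-fold that in HFD, and the log2 fold change against HFD was 1.33 ± 0.16 (95% interval 0.99 to 1.68). Because this difference was known when the genes were listed, it and its interval are descriptions and not independent evidence. Against NC, the log2 fold change in SZ-A was -0.38 (95% interval -0.73 to -0.02) and was not called (limma, adjusted p = 0.171). The 3 comparisons share mice, so these differences are not independent of each other.

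A gene was called where its adjusted p was below 0.05 and its fold change above 1.2. In HFD against NC, 5 of the 9 genes were called, against 20.2% of all genes tested. Ghr, Igfals and Igfbp7 were higher and Igfbp1 and Igfbp2 lower, where 10.7% of all genes were called higher and 9.49% lower. In SZ-A against HFD, Igfbp2 alone of the 9 passed these limits, as 0.147% of all genes did (0.0783% higher and 0.0685% lower). Because the Igfbp2 difference was known when the genes were listed, nothing is read from that count, and none of the other 8 genes was called. Between SZ-A and NC, Igfals alone of the 9 was called, against 9.6% of all genes (5.31% higher and 4.3% lower). An unadjusted p under 0.05 was found for 5, 2 and 5 of the 9 genes in these comparisons, against 34.8%, 14.8% and 25.5% of all genes. Ranges did not overlap for 2 of the 9 genes in HFD against NC (Igfbp2 and Igfbp7), for Igfbp2 in SZ-A against HFD and for none in SZ-A against NC, where 5.5% of all genes did not overlap. The median log2 fold change of the 9 genes was 0.06, 0.10 and 0.02 in these comparisons, and that of all genes was -0.03, 0.03 and -0.01. Without NC6 the same 5 genes were called in HFD against NC, with log2 fold changes of -1.75 for Igfbp2 and -2.41 for Igfbp1, 0.53 for Igfbp7, 0.76 for Igfals and 0.77 for Ghr.

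**Figure D2:**
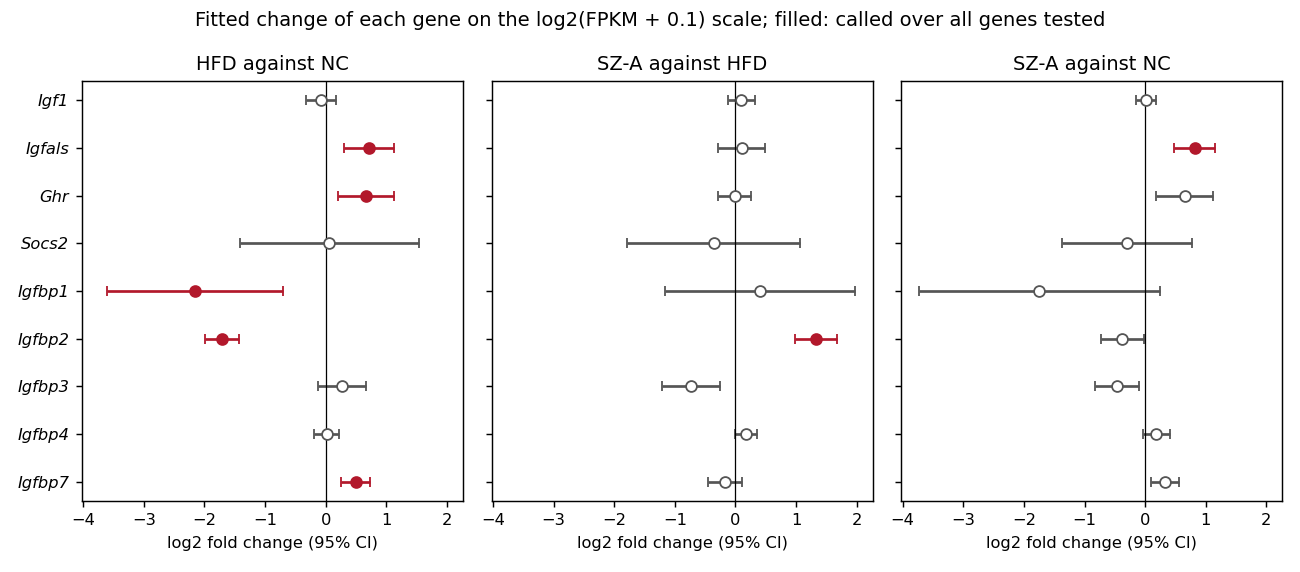
Fitted log2 fold change on the log2(FPKM + 0.1) scale (horizontal axis) of each gene (rows) in the 3 comparisons, from limma with 6 mice per group. Points are estimates, bars are 95% intervals, and filled points are called over all 10216 genes tested. The intervals of Igfbp1 and Socs2 are the widest, and that of Igfbp2 lies below 0 in HFD against NC and above 0 in SZ-A against HFD.

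Igfbp1, the acutely regulated binding protein of the fasted liver, was lower in HFD than in NC and varied widely between NC mice. Its level ranged from 21.2 to 622 FPKM in NC (median 157), from 13.2 to 48.3 FPKM in HFD (median 31.5) and from 9.45 to 436 FPKM in SZ-A (median 39.4). The NC mouse NC2 was within the HFD range, and the high SZ-A value came from SZ-A5 alone, the next SZ-A mouse being at 43.9 FPKM. The log2 fold change in HFD against NC was -2.16 ± 0.67 (SE), with a limma adjusted p of 0.0367. This call was lost when any 1 of HFD1, HFD3, HFD4, HFD6, NC1, NC3, NC4 or NC5 was left out, with log2 fold changes from -2.69 to -1.72 over all single mice left out. It was also lost with no filter on low values and with all mice in 1 fit. In SZ-A against HFD the log2 fold change was 0.41 (95% interval -1.16 to 1.98), and it was -0.27 without SZ-A5. Against NC it was -1.75 (95% interval -3.74 to 0.25). At this spread neither difference was resolved.

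Igfbp4, which encodes the binding protein cleaved by the protease PAPP-A, was not called in any comparison. Its level ranged from 417 to 588 FPKM in NC (median 468), from 426 to 547 FPKM in HFD (median 479) and from 443 to 591 FPKM in SZ-A (median 560). The HFD range lay within the NC range, and 5 of 6 SZ-A mice were above the highest HFD mouse. The log2 fold change in HFD against NC was 0.01, with a 95% interval of -0.19 to 0.22. In SZ-A against HFD the log2 fold change was 0.17 (95% interval -0.01 to 0.36), and it was -0.0061 after rescaling to a common sum.

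Igfbp7, which encodes a secreted protein that binds IGFs weakly, rose in HFD liver. Its level ranged from 63.2 to 81.3 FPKM in NC (median 74.1), from 84.2 to 133 FPKM in HFD (median 100) and from 69.5 to 107 FPKM in SZ-A (median 95.4). All 6 HFD mice were above the highest NC mouse, and SZ-A mice overlapped both groups. The log2 fold change in HFD against NC was 0.49 ± 0.11 (SE), with a limma adjusted p of 0.0070, and the gene was called in all 22 alternatives. In SZ-A it was -0.17 against HFD (95% interval -0.45 to 0.11) and 0.33 against NC (95% interval 0.10 to 0.55), and neither was called. Marker genes of non-parenchymal cells are given beside Igfbp7, where 10.7% of all genes were called higher in HFD than in NC. Of 9 stellate cell and fibroblast markers, 6 were called higher, and Des, Dcn and Acta2 were not called. Des and Dcn had log2 fold changes of 0.32 each and Acta2 of -0.27. The 9 markers summed to 58.5 to 76.0 FPKM in NC, 66.2 to 133 FPKM in HFD and 63.9 to 87.7 FPKM in SZ-A. Of 10 endothelial markers 2 were called higher and 8 were not called, with summed levels of 88.1 to 112 FPKM in NC, 103 to 118 FPKM in HFD and 100 to 111 FPKM in SZ-A. Of 10 Kupffer cell and macrophage markers 5 were called higher, with summed levels of 191 to 332 FPKM in NC, 273 to 502 FPKM in HFD and 297 to 395 FPKM in SZ-A. None of these markers was at 0 in all mice of a group, and their part in the Igfbp7 difference was not tested.

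Igfbp3, the carrier of the large circulating complex, was low in this tissue and lowest in SZ-A. It ranged from 5.19 to 7.55 FPKM in NC (median 5.61), from 4.51 to 11.5 FPKM in HFD (median 7.09) and from 2.94 to 6.81 FPKM in SZ-A (median 4.01). The SZ-A mouse SZ-A2 was within the NC range, while the other 5 were below the lowest NC mouse. Log2 fold changes were 0.27 in HFD against NC (95% interval -0.13 to 0.67), -0.74 in SZ-A against HFD (-1.21 to -0.26) and -0.47 in SZ-A against NC (-0.83 to -0.11). None of these was called (limma, adjusted p of 0.331, 0.155 and 0.0942). The summed endothelial markers had a median of 99.5 FPKM in NC, 116 FPKM in HFD and 103 FPKM in SZ-A. The summed stellate cell markers had 68.2 FPKM, 103 FPKM and 81.8 FPKM in the same order. The NC and SZ-A ranges of both sums overlapped. Their part in the Igfbp3 values was not tested.

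The remaining family members were scarce. Igfbp5, the neighbour of Igfbp2 and the other carrier of the large complex, was at 0.848 ± 0.572 FPKM in NC, 1.52 ± 0.792 FPKM in HFD and 1.22 ± 0.259 FPKM in SZ-A (SD, n = 6) and was not called. Its log2 fold change was 0.82 in HFD against NC, in the opposite direction to Igfbp2. Igfbp6 was at 0.672, 0.775 and 1.18 FPKM on average in NC, HFD and SZ-A, below the filter.

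Summed over the 7 Igfbp genes, NC mice had 1590 ± 374 FPKM, HFD mice 874 ± 76.0 FPKM and SZ-A mice 1366 ± 217 FPKM (SD, n = 6). Every HFD mouse, at no more than 985 FPKM, was below every NC and SZ-A mouse, the lowest of which was at 1101 FPKM. Igfbp2 accounted for 51.1% ± 6.31 of the sum in NC, for 27.8% ± 2.55 in HFD and for 45.4% ± 6.00 in SZ-A. Igfbp4 accounted on average for 30.8% in NC, for 55.3% in HFD and for 40.9% in SZ-A, and Igfbp1 12.8%, 3.77% and 6.23%. The sum was 36.5 ± 11.1 times the Igf1 level in NC, 21.2 ± 4.03 times in HFD and 30.7 ± 5.53 times in SZ-A. These sums rest largely on Igfbp2 and are given without a test.

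**Figure D3:**
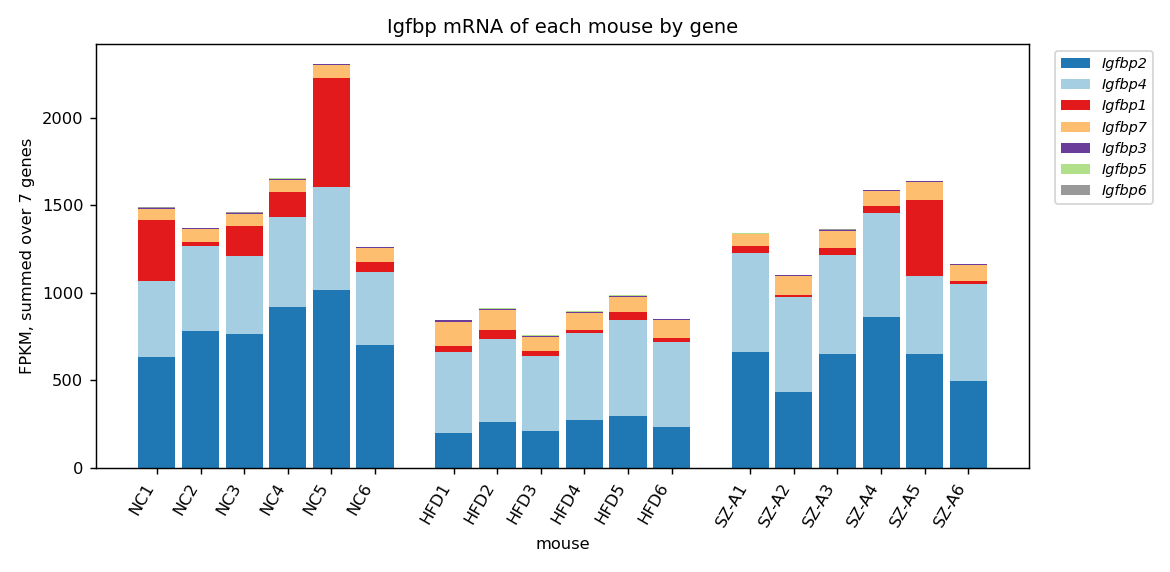
Level (FPKM, vertical axis) of the 7 Igfbp genes stacked in each of the 18 mice. The Igfbp2 share of the sum averages 27.8% in HFD against 51.1% in NC and 45.4% in SZ-A, Igfbp4 stays between 417 and 591 FPKM, and a large Igfbp1 part is seen in NC1, NC5 and SZ-A5.

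Igf1, the ligand, did not differ detectably between the groups. Levels ranged from 40.7 to 53.5 FPKM in NC (median 42.9), from 34.8 to 51.6 FPKM in HFD (median 41.2) and from 42.3 to 50.3 FPKM in SZ-A (median 44.1). All 3 ranges overlapped, and 3 HFD mice were below the lowest NC mouse. Log2 fold changes were -0.08 in HFD against NC (95% interval -0.33 to 0.17), 0.10 in SZ-A against HFD (-0.13 to 0.33) and 0.02 in SZ-A against NC (-0.16 to 0.19). After rescaling to a common sum they were 0.11 and -0.08 in HFD against NC and SZ-A against HFD, with the signs turned.

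Igfals, which encodes the acid-labile subunit that stabilises the large IGF complex, was higher in both groups on the high-fat diet. Its level ranged from 23.0 to 39.9 FPKM in NC (median 32.7), from 33.5 to 74.4 FPKM in HFD (median 50.6) and from 39.6 to 63.7 FPKM in SZ-A (median 55.1). In HFD and in SZ-A, 5 of 6 mice were above the highest NC mouse. The log2 fold change against NC was 0.71 ± 0.19 (SE) in HFD and 0.82 ± 0.16 (SE) in SZ-A, with limma adjusted p of 0.0193 and 0.0072, and both were called in all 22 alternatives. SZ-A against HFD gave 0.10 (95% interval -0.28 to 0.49), and -0.07 after rescaling to a common sum.

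Ghr, the growth hormone receptor, was higher in HFD than in NC. Levels ranged from 17.2 to 50.3 FPKM in NC (median 36.5), from 45.4 to 65.4 FPKM in HFD (median 56.6) and from 39.1 to 64.7 FPKM in SZ-A (median 56.8). The lowest value was that of NC5, and the highest NC value that of NC6. The log2 fold change in HFD against NC was 0.66 ± 0.21 (SE), with a limma adjusted p of 0.0408. The call was lost when any 1 of HFD2 to HFD6, NC1, NC3 or NC4 was left out, where log2 fold changes were 0.46 to 0.77 over all single mice left out. It was also lost with no filter on low values (adjusted p = 0.0863, limma) and with the replicate number as a block (adjusted p = 0.0678, limma). For SZ-A against NC the log2 fold change was 0.65 ± 0.22 (SE) and was not called (limma, adjusted p = 0.0804), whereas without NC6 it was 0.76 and called (adjusted p = 0.0489). The difference between SZ-A and HFD was -0.01 on the log2 scale (95% interval -0.28 to 0.26).

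Socs2, a STAT5 target that inhibits growth hormone signalling, was low and varied widely within every group. It ranged from 0.508 to 4.02 FPKM in NC (median 0.929), from 0.248 to 7.63 FPKM in HFD (median 1.40) and from 0.471 to 2.72 FPKM in SZ-A (median 0.848). These levels rested on 47 to 1347 fragments per mouse, and the ranges of all groups overlapped. The log2 fold change was 0.06 in HFD against NC (95% interval -1.42 to 1.54) and -0.46 without HFD5, the mouse with the highest value. In SZ-A it was -0.36 against HFD (0.15 without HFD5) and -0.30 against NC. No difference was detectable at this spread.

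Other genes of the pathway were taken from a list of 28 receptors, proteases, kinases and signal regulators, of which 17 passed the filter. Igf1r, the IGF-1 receptor gene, averaged 0.216 FPKM in NC and Igf2 0.0048 FPKM, and both were below it. In HFD against NC, 4 of the 17 were called higher and none lower by limma, against 10.7% and 9.49% of all genes. An unadjusted p under 0.05 was found for 6 of them. The inhibitory receptor gene Sirpa had a log2 fold change of 1.17 (adjusted p = 0.0013), with HFD and NC mice not overlapping. The feedback inhibitor Socs3 followed with 0.87 (adjusted p = 0.0136), and the transcription factor gene Stat5a with 0.68 (adjusted p = 0.0199). Of the 10 Kupffer cell and macrophage markers above, 5 were also called higher, and their part in the Sirpa difference was not tested. Stat5b, the main hepatic STAT5, averaged 10.6 FPKM in NC and 11.5 FPKM in HFD and was not called, nor was Jak2. In SZ-A against HFD none of the 17 was called by limma, 1 having an unadjusted p under 0.05, and voom called none either. Against NC, Socs3 was called higher in SZ-A, with 1.11 (adjusted p = 0.0378), where 5.31% of all genes were called higher. Without NC6 it was Sirpa that was called there instead.

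Liver genes with a sex bias set by the pattern of growth hormone secretion were taken as a list of 12 male-biased and 13 female-biased genes. All 12 male-biased genes passed the filter, and in HFD against NC 4 of the 12 were called lower and none higher, against 9.49% and 10.7% of all genes. The fatty acid elongase gene Elovl3 fell by 1.83 on the log2 scale (adjusted p = 0.0028), from 169 ± 89.2 FPKM to 46.2 ± 20.9 FPKM. Cyp4a12b, Gstp1 and Cyp2d9 also fell, with log2 fold changes of -1.83, -0.92 and -0.75. In SZ-A against HFD none was called by limma or voom, 4 having an unadjusted p under 0.05, among them the organic anion transporter gene Slco1a1 with a log2 fold change of 2.01. Compared with NC, the steroid dehydrogenase gene Hsd3b5 was called higher in SZ-A, with 75.0 ± 42.8 FPKM in SZ-A, 7.44 ± 8.93 FPKM in NC and 12.1 ± 12.9 FPKM in HFD, and Elovl3 was called lower, at -1.61, against 5.31% of all genes called higher and 4.3% lower. The median log2 fold change of the male-biased genes was -0.51 in HFD against NC, 0.40 in SZ-A against HFD and 0.14 in SZ-A against NC.

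Only 3 of the 13 female-biased genes passed the filter, and all 3 were called in HFD against NC, against 20.2% of all genes. The cytochrome gene Cyp2b9 went from 0.280 ± 0.311 FPKM in NC to 88.2 ± 57.2 FPKM in HFD and averaged 43.1 FPKM in SZ-A (SD, n = 6), with every HFD and SZ-A mouse above every NC mouse. Cyp2b13 was called higher and Cyp17a1 lower in HFD, with log2 fold changes of 4.52 and -1.57. Cyp2b9 and Cyp2b13, Cyp4a12b and Cyp4a12a, and Gstp1 and Gstp2 are close copies whose fragments may have been divided between them, so their values are uncertain. Genes that passed the filter only through the groups in which they were high had to differ, as with Cyp2b9 and Cyp2b13. Cyp17a1 was above the filter in every group, with means of 28.3 FPKM in NC, 6.40 FPKM in HFD and 10.7 FPKM in SZ-A. Its NC values had an SD of 37.3 FPKM and a median of 14.3 FPKM, with the highest mouse at 104 FPKM. The count of 3 called genes says nothing of the 10 others.

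Genes repressed by insulin, the kind of regulation known for Igfbp1, were taken as a list of 8, all of which passed the filter. In HFD against NC, 3 of the 8 were called lower and none higher, against 9.49% and 10.7% of all genes. Pck1, the rate-limiting enzyme gene of gluconeogenesis, fell from 1167 ± 238 FPKM in NC to 525 ± 95.6 FPKM in HFD (SD, n = 6), by 1.15 on the log2 scale (adjusted p = 0.0003). Tat fell by 1.47 and G6pc by 1.26 on the same scale. In SZ-A against HFD none of the 8 was called by limma or voom, with 3 at an unadjusted p under 0.05. Of these, Pck1 and Tat were higher, with log2 fold changes of 0.53 and 0.65, and Pdk4 was lower, with -0.96. Pck1 was at 762 ± 145 FPKM in SZ-A. Pck1 and Pdk4 were called lower in SZ-A than in NC, with log2 fold changes of -0.61 and -1.58, where 4.3% of all genes were called lower. Median log2 fold changes of the 8 genes were -0.80, 0.26 and -0.72 in the 3 comparisons.

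Within groups, mice with more Ghr mRNA also had more Igfals mRNA. For this, each mouse was given its deviation from its group mean on the log2(FPKM + 0.1) scale, and 6 pairs of genes were compared over the 18 mice with two-sided permutation tests, permuting mice within groups. For Ghr and Igfals, Pearson's r was 0.695 (permutation p = 0.0004, adjusted over the 6 pairs 0.0024) and Spearman's rho 0.792 (permutation p = 0.00053, adjusted 0.0032). Taken by group, r was 0.797 for NC mice, 0.675 for HFD mice and 0.899 for SZ-A mice, so all 3 groups shared the direction. For Igf1 and Igfals, r was 0.744 (permutation p = 0.0016, adjusted 0.0047) and rho 0.723 (permutation p = 0.0031, adjusted 0.0094). For Ghr and Igf1, r was 0.509 (permutation p = 0.0214, adjusted 0.0428) and rho 0.622 (permutation p = 0.0084, adjusted 0.0168).

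Igf1 and Socs2 had an r of 0.614 (permutation p = 0.0287, adjusted 0.0431) and a rho of 0.602 (permutation p = 0.0303, adjusted 0.0454), but in NC r was -0.05. Igf1 and Igfbp2 did not vary together in a detectable way, with r 0.034 (permutation p = 0.885, adjusted 0.885) and rho -0.049 (permutation p = 0.860, adjusted 0.860). Igfbp1 and Igfbp2 had r 0.377 (permutation p = 0.189, adjusted 0.226) and rho 0.321 (permutation p = 0.227, adjusted 0.272). With the 2 mice farthest from the median left out, r was 0.663 for Ghr and Igfals, 0.601 for Igf1 and Igfals, 0.642 for Ghr and Igf1, 0.573 for Igf1 and Socs2, -0.135 for Igf1 and Igfbp2 and 0.507 for Igfbp1 and Igfbp2. The first 3 then had adjusted permutation p of 0.0528 each and Igf1 with Socs2 0.0606, so that none of the 4 was called over the mice left. The mice left out were NC5 and SZ-A5 for pairs that begin with Ghr and NC2 and HFD5 for pairs that begin with Igf1. For Ghr and Igf1, r was larger without NC5 and SZ-A5 than with them, and 0.402 when NC2 and HFD5, the mice farthest for Igf1, were left out instead. The values of a mouse come from 1 library, whose depth and scaling both genes share, and their part in these relations was tested only by rescaling to a common sum, under which the first 3 remained called.

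**Figure D4:**
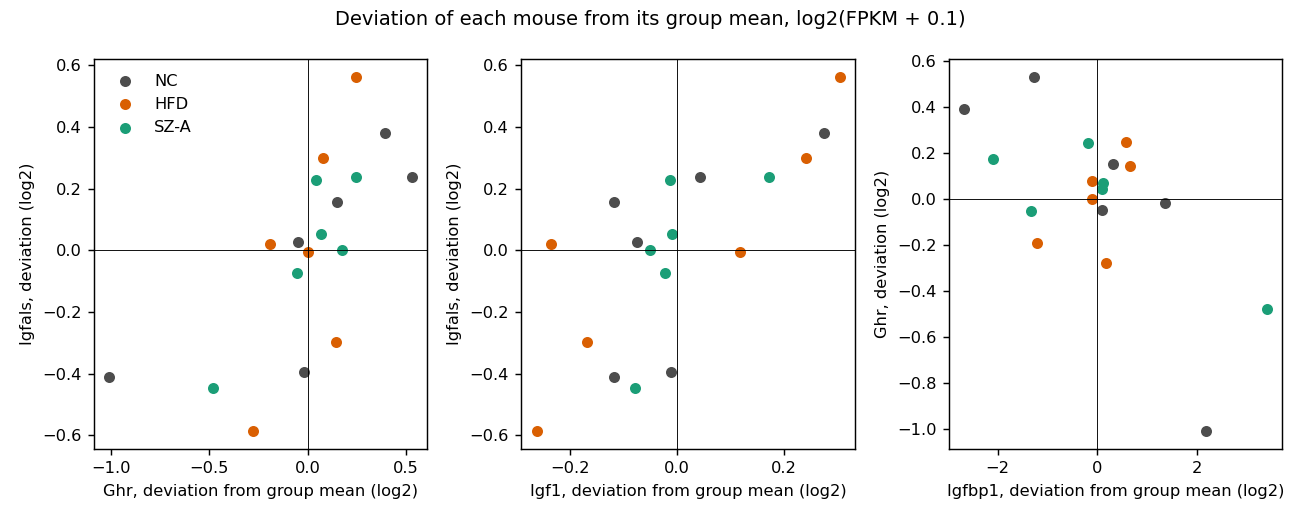
Deviation of each of the 18 mice from its group mean on the log2(FPKM + 0.1) scale, coloured by group, for Igfals against Ghr (r = 0.695), Igfals against Igf1 (r = 0.744) and Ghr against Igfbp1 (r = -0.646, a pair chosen after its values were seen and not called over all 36 pairs). The NC mouse and the SZ-A mouse with the most Igfbp1 mRNA have the least Ghr mRNA of their groups.

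By the same deviations, the genes most like 4 of the 9 were looked up among the 10215 others tested, as a description over 18 mice. Nearest to Igfbp1 were Ccng2 (r = 0.888), Pnrc1 (r = 0.846) and G6pc (r = 0.834), the last being among the 8 insulin-repressed genes above. Nearest to Igfals were Cyp2c67 (r = 0.898) and Hagh (r = 0.872). Nearest to Igf1 were Ppp4r3a (r = 0.858), Ugt2b36 (r = 0.838) and Acadsb (r = 0.822). Nearest to Igfbp2 were AC115954.1 (r = 0.788), Gm1821 (r = 0.785) and Rpl19-ps11 (r = 0.763), all at no more than 15.0 FPKM on average in any group. Each pair shares its libraries, and the highest of many values are high by selection.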

How the data were processed

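RNA of 18 livers was sequenced, with 6 mice in each of NC, HFD and SZ-A. By the submitters' processing notes, reads were aligned to GRCm38 (mm10) with HISAT2 2.0.5 and counted per gene with featureCounts 1.5.0-p3. The deposited values are FPKM, computed by the authors per gene length and library size, without a filter on low values. The authors tested counts with DESeq2, which does not take FPKM, so limma 3.58.1 (R 4.3.3, empirical Bayes with a trend) was fitted here to log2(FPKM + 0.1). Fold changes on that scale understate changes of low genes.

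Each comparison used its own 12 mice and the 10216 genes with a mean of at least 1 FPKM over the 18 mice, with Benjamini-Hochberg adjustment over all of them. The 9 genes and all gene lists were chosen with earlier results of these data known. The text names the 9 genes, the called genes of each list with up to 4 more of large change, Igfbp5, Igfbp6, and the 3 genes most like Igfbp2, Igfbp1, Igf1 and Igfals, apart from 2 genes that are not reported here. FPKM multiplied by gene length gave whole fragments for 100% of values within 0.05, which gave the depth and a test with voom. No mice were near-identical. The labels number the mice within groups but name no shared litter, batch or day. Whether mice of a group shared a cage is not given, so p-values measure the spread between these mice. Cell type markers were summed per mouse. Correlations used 100000 permutations, and all 36 pairs of the 9 genes and the motif search were added after values were seen. The fit was tested on simulated data. Alternatives were other pseudocounts, filters, scalings, voom, all mice in 1 fit, weights per mouse, the replicate number as a block, and each mouse left out.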

Additional observations from a re-analysis of the deposited data

Results flagged for a closer look

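In 5 of 27 groups of 6 mice (9 genes in 3 groups), 1 mouse stood apart from the others by Dixon's test on untransformed FPKM. The usual rate of about 1 in 20 assumes normal values and independent groups. Values of Igfbp1 and Socs2 were skewed and the genes share mice, so this count is not set against chance. In SZ-A5, Igfbp1 was at 436 FPKM, with the next mouse at 43.9 FPKM, and Igfbp4 was the lowest of its group at 443 FPKM, with the next at 547 FPKM. In SZ-A1, Igf1 was the highest of its group at 50.3 FPKM, with the next at 44.4 FPKM, and Socs2 was the highest at 2.72 FPKM, with the next at 1.19 FPKM. In HFD5, Socs2 was at 7.63 FPKM, with the next HFD mouse at 1.66 FPKM. The explanation of these values was not tested.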

How the results depend on the processing

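Igfbp2 and Igfbp7 in HFD against NC and Igfals against NC in HFD and SZ-A were called in every alternative run. Of the 9 genes, 3 were called in HFD against NC with no filter on low values. In SZ-A against NC, 2 were called with all mice in 1 fit and 4 with weights. Of the signalling genes, 1 was called in HFD against NC at a mean of at least 5 FPKM and 8 after rescaling to a common sum. In SZ-A against NC, 0 were called with no filter, at 5 FPKM and by voom, 2 in the fit of all mice and 3 with weights. Weights called 1 sex-biased gene (Slco1a1) and 2 insulin-repressed genes (Pck1, Pdk4) in SZ-A against HFD, and 6 sex-biased genes in SZ-A against NC, where no filter left 1 insulin-repressed gene. Weights called 233 of all genes in SZ-A against HFD and rescaling 216, against 15 in the fit reported. The study, testing counts with DESeq2 at the same limits, reported more genes in this comparison than any fit here. The cause of these differences was not tested, and a gene not called here is not shown to be unchanged.

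Leaving out single mice gave 3 to 5 of the 9 genes called in HFD against NC, 1 in SZ-A against HFD and 1 to 2 in SZ-A against NC. The ranges were 4 to 6, 0 and 0 to 2 for signalling genes, 6 to 8, 0 and 3 to 4 for sex-biased genes, and 2 to 3, 0 to 1 and 1 to 3 for insulin-repressed genes. Fold changes (log2) that changed sign were those of Igfbp4 (-0.024 to 0.075) and Socs2 (-0.46 to 0.44) in HFD against NC, of Igfbp1 (-0.27 to 0.83), Igfals (-0.013 to 0.22), Ghr (-0.068 to 0.083) and Socs2 (-0.74 to 0.15) in SZ-A against HFD, and of Igf1 (-0.019 to 0.071) and Socs2 (-0.60 to 0.040) in SZ-A against NC. Rescaling turned Igf1 to 0.11 in HFD against NC, and Igf1 to -0.080, Igfbp4 to -0.0061 and Igfals to -0.074 in SZ-A against HFD. Weights turned Ghr to 0.050 there and Socs2 to 0.016 in SZ-A against NC. None of these was called.

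The correlation of Igf1 and Socs2 lost its call after rescaling (r = 0.323) and with a pseudocount of 1 (r = 0.580). The 4 called pairs also lost it without the 2 farthest mice, with r of 0.642 for Ghr and Igf1, 0.663 for Ghr and Igfals, 0.601 for Igf1 and Igfals and 0.573 for Igf1 and Socs2. Igf1 and Igfbp2 turned to -0.351 after rescaling and to -0.135 without the 2 mice. Without NC6, r was 0.528 for Ghr and Igf1 and 0.613 for Igf1 and Socs2, both with an adjusted permutation p of 0.0529.

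Mice with the same number in 2 groups correlated by -0.117 to 0.292 over genes. Mice with different numbers were not compared in this way, so whether the numbers pair mice cannot be told. With the replicate number as a block, 0 of the 9 genes and 0 of all genes were called in SZ-A against HFD (Igfbp2 adjusted p = 0.123, limma), 4 of the 9 genes in SZ-A against NC and 4 in HFD against NC (Ghr was lost), and in SZ-A against NC 0 signalling and 4 insulin-repressed genes. Socs2 had no value at a mean of at least 5 FPKM. The 6 mice per group and the wide spread of Igfbp1 and Socs2 limit what could be resolved for these genes.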

Other observations

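Over all 36 pairs of the 9 genes, which were compared after the values of Igfbp1 and Ghr were seen, 2 had an adjusted permutation p under 0.05 (Ghr with Igfals and Igf1 with Igfals) and 11 an unadjusted one. Igfbp1 and Ghr moved in opposite directions, with r -0.646 (permutation p = 0.0105, adjusted 0.0815) and rho -0.447 (permutation p = 0.0843, adjusted 0.276). The r was -0.817 in NC and -0.810 in SZ-A but 0.607 in HFD, and -0.498 without NC2 and SZ-A5. In NC5, Igfbp1 was at 622 FPKM and Ghr at 17.2 FPKM, the highest and the lowest of the 18 mice. In SZ-A5, Igfbp1 was at 436 FPKM and Ghr at 39.1 FPKM, the highest and lowest of SZ-A. This relation did not pass the adjustment.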
